A study of Mus musculus with 22 samples.

Results

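The genes described here are 38 genes of the oligodendrocyte lineage, out of 23361 genes measured in the hippocampal CA1 region of the mouse. They were chosen by name, and all 38 were found in the data. Of these, 4 are precursor genes, Pdgfra, Gpr17, Enpp6 and Bcas1, and the other 34 are called mature genes here. Most of the 34 are genes of myelin and of oligodendrocytes, and the transcription factors Olig1, Olig2, Sox10 and Nkx6-2 are counted with them. The label is a grouping and does not mean that each gene, such as the lineage factors Olig1 and Olig2, is limited to mature cells. Each of the 22 libraries was made from the microdissected CA1 of 1 mouse and sequenced as mRNA, and levels are given as FPKM, the number of sequenced fragments of a gene scaled to its exon length and to the mapped fragments of the library, so that levels can be compared between genes. All mice were female wild-type Swiss Webster x DBA/C57BL6 F1 animals. They were fed either the normal diet without restriction (AL) or a calorie-restricted diet in which carbohydrates were reduced (CR). Both diets were begun at about the same young age, so the older CR mice had also been restricted for longer than the younger ones. Age and time on the diet therefore cannot be told apart in CR mice, and the comparisons of diet at each age differ in its duration. The groups were AL at 5 months (n = 5), CR at 5 months (n = 5), AL at 15 months (n = 6) and CR at 15 months (n = 6). The comparisons ask how the lineage genes differ with age on each diet and with diet at each age.

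Oligodendrocytes wrap axons of the central nervous system in myelin, a compacted stack of membrane that speeds conduction and supports the axon. They arise from precursor cells that carry the platelet-derived growth factor receptor Pdgfra and keep dividing in the adult brain. A precursor that commits to differentiation passes through a stage marked by Gpr17 and then Bcas1 and Enpp6, before the genes of compact myelin such as Mbp and Mog are switched on. The hippocampus holds myelinated fibres, and the alveus, a sheet of white matter, borders CA1.

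Averaged over the 22 libraries, Mbp, the basic protein that glues the inner faces of the myelin membrane, had the highest level of the 38 genes, at a mean of 571 FPKM. It was followed by Plekhb1 at 150.3 FPKM, Car2 at 120.3 FPKM, Qdpr at 100.5 FPKM and Cnp at 86.7 FPKM. The lowest were Klk6, a secreted protease, at 0.525 FPKM, and Enpp6, a choline phosphodiesterase of newly forming oligodendrocytes, at 1.33 FPKM. Every member was above 0 in every library and passed the filter on low values, a mean of at least 0.1 FPKM, which 16978 genes passed. The median FPKM of a library ranged from 2.51 to 3.10 and the correlation of levels between any pair of libraries from 0.889 to 0.945. All 5 CA1 pyramidal neuron markers (Wfs1, Fibcd1, Pou3f1, Man1a, Mpped1) were present in every library, and their summed level lay between 91.5 and 408 FPKM.

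The 34 mature genes varied from mouse to mouse more than most genes did, and largely together. Within groups, the median standard deviation was 0.54 on the log2(FPKM + 0.1) scale over the mature genes against 0.22 over all genes tested and 0.19 over genes with a mean of at least 1 FPKM. By group, that median was 0.26 in AL mice at 5 months, 0.44 in CR mice at 5 months, 0.44 in AL mice at 15 months and 0.77 in CR mice at 15 months. Over all genes tested it was 0.16, 0.17, 0.20 and 0.25 in the same order of groups. The spread was thus smallest in the young AL mice and largest in the old CR mice, both in the mature genes and over all genes. For the mature genes, a pair of libraries of the old CR mice stood at opposite ends.

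CR 15-month replicate 5 was the highest library of its group in 32 of the 34 mature genes, and of all 22 libraries in 21 of them. CR 15-month replicate 4 was the lowest of its group in 28 mature genes and of all 22 libraries in 24. The same library had the lowest summed CA1 markers of all, 91.5 FPKM where the next had 178 FPKM, and the highest summed CA3 markers, 123 FPKM, and replicate 5 had the highest neocortex and subiculum markers, 251 FPKM. The mean log2 level of neocortex and subiculum markers minus that of CA1 markers was -0.41 in replicate 4 and -0.48 in replicate 5. The next highest CA3 sums, 116 and 113 FPKM, came with Mbp at 576 FPKM (AL 5-month replicate 1) and 917 FPKM (CR 5-month replicate 4). The next highest neocortex and subiculum sum, 241 FPKM in AL 15-month replicate 5, came with Mbp at 395 FPKM. The part of the dissected region in these swings was not tested. Between CR 15-month replicates 4 and 5, 2 mice of 1 group, mature genes differed by a median of 4.48-fold, from 1.18-fold for Car2 to 21.5-fold for Klk6. Mbp was at 1039 FPKM in replicate 5 and 227 FPKM in replicate 4. A smaller swing of the same kind ran through the other groups. AL 5-month replicate 4 was highest of its group in 31 mature genes, CR 5-month replicate 4 was highest and replicate 2 lowest of their group in 28 each, and AL 15-month replicate 2 was lowest of its group in 20. Because CR 15-month replicates 4 and 5 stand apart, counts of calls below are also given without them. Bulk RNA cannot tell fewer oligodendrocytes in the dissected piece from less RNA of these genes per cell.

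**Figure D1:**
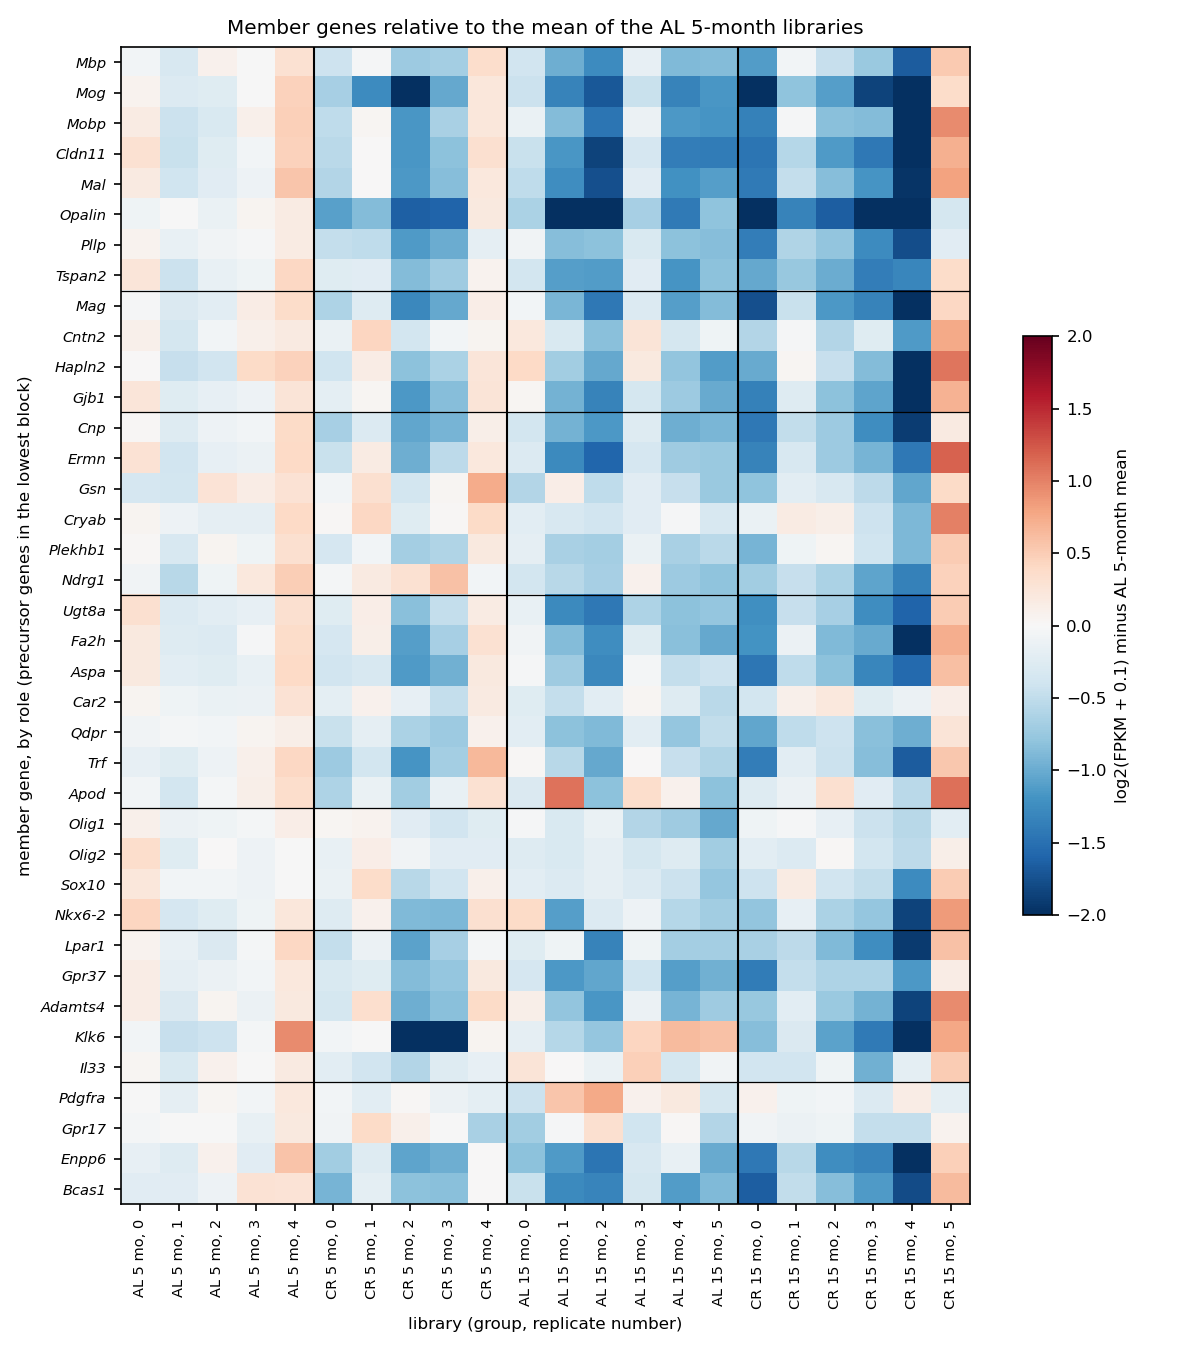
Each cell is the log2(FPKM + 0.1) of a gene (rows, by role, with the 4 precursor genes in the lowest block) in a library (columns, by group and replicate number) minus the mean of the 5 AL libraries at 5 months. Most columns are of 1 colour over the mature genes, CR 15-month replicates 4 and 5 are the darkest blue and the most red, and Pdgfra and Gpr17 stay pale where the genes around them do not.

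Between 5 and 15 months, AL mice had lower levels of some oligodendrocyte genes, and no mature gene was called higher. A gene was called at a Benjamini-Hochberg adjusted p under 0.05 over all genes in a limma fit of the 4 groups, and differences are in log2(FPKM + 0.1). In that fit 6 of the 34 mature genes were called lower with age: Opalin, Tspan2, Qdpr, Olig1, Olig2 and Gpr37. Over all genes tested 9.97% were called lower and 10.7% higher in this comparison. At an unadjusted p under 0.05, 16 mature genes were lower and none higher, and 32 of the 34 had a negative difference. The median difference of the mature genes was -0.54, against -0.0018 over all genes tested. Libraries of the 2 ages did not overlap for 6 mature genes, all lower at 15 months (Mog, Opalin, Cnp, Qdpr, Sox10 and Gpr37), where 6.77% of all genes tested were lower without overlap.

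The count of 6 depended on single mice, although the median did not. It was 1 without AL 5-month replicate 4 and 2 or 3 without AL 5-month replicate 0, 2 or 3 or AL 15-month replicate 1, 2, 4 or 5, namely 2, 3, 3, 2, 3, 2 and 2 in that order. Without CR 15-month replicate 4 or 5, which enter this comparison only through the estimate of the spread, it was 12 or 14, and without both 14. The genes called lower over all genes moved less: they numbered 1187 without AL 5-month replicate 4, 1115 to 1650 without the other AL mice just named, 1800 and 1752 without CR 15-month replicate 4 or 5, and 1845 without both. The median difference kept its sign in all of these fits.

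Other tissue moved with age as well. Of the 9 neocortex and subiculum markers 5 were called higher and none lower in AL mice at 15 months, and their summed level was 127 to 241 FPKM against 81.5 to 134 FPKM at 5 months. Of the 5 CA1 markers 3 were called lower, with sums of 178 to 265 FPKM against 198 to 408 FPKM. Of the 8 choroid plexus markers 4 were called lower, with sums of 0.898 to 6.67 FPKM against 4.55 to 37.1 FPKM, and none of these markers was at 0 in any library. With the region score (mean log2 level of the neocortex and subiculum markers minus that of the CA1 markers) or the choroid plexus score as a covariate, limma called none of the 34 mature genes. Over all genes tested, however, the fit with the region score called 0 and that with the choroid plexus score called 867 lower, where 1693 were without a covariate. The differences of the 6 genes stayed negative in both fits, and that of Opalin was -1.21 and -1.25. The region score of the younger AL mice lay between -3.38 and -1.62 and that of the older ones between -0.96 and 0.38, so region and age cannot be told apart in these mice, and the part of these tissues in the result was not tested. Of the other marker lists, 2 of 5 CA3 and 2 of 5 dentate markers were called lower, 1 of 5 thalamus markers higher, 1 of 8 astrocyte markers higher and another lower, and 1 of 8 microglia markers lower. Limma called 0 of 7 endothelial, 0 of 6 fibroblast and 0 of 6 interneuron markers, with 1, 0 and 0 at an unadjusted p under 0.05.

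Proteins of the myelin membrane held the widest differences. Opalin, a glycoprotein of the myelin loops that is restricted to oligodendrocytes, was at 19.95, 21.1, 19.4, 21.99 and 23.7 FPKM in the 5 AL mice at 5 months. At 15 months the 6 AL mice ran from 4.37 over a median of 9.98 to 13.6 FPKM, so that every older library lay below every younger one. The difference was -1.33 ± 0.41 (SE; limma adjusted p = 0.0269; exact two-sided permutation p = 0.00649 over 462 divisions of the mice, of which the smallest possible is 0.00216). Opalin is on the minus strand of chromosome 19, at 41061710 to 41077113 (GRCm38, the mm10 build, GENCODE release M21).

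Tspan2, a tetraspanin of the myelin membrane, was at 33.0, 20.5, 25.0, 26.3 and 37.1 FPKM at 5 months and between 12.2 and 23.6 FPKM (median 14.3) at 15 months, where the groups overlapped. Its difference of -0.80 ± 0.27 was called (limma adjusted p = 0.0387), a call lost in 10 of 34 alternative fits. Mbp was at 693, 576, 760, 712 and 889 FPKM in the younger AL mice and ran from 302 over 392 to 645 FPKM in the older ones. The older mice were lower with some overlap, and the difference of -0.75 (95% interval -1.38 to -0.12) was not called (adjusted p = 0.080). Mog, on the outermost myelin surface, went from a mean of 34.8 ± 7.63 to 17.2 ± 6.40 FPKM (SD), with a difference of -1.07 and an adjusted p of 0.0804. Cldn11, which forms the tight junctions between myelin layers, went from 70.0 ± 18.3 to 34.1 ± 14.4 FPKM, a difference of -1.10 at an adjusted p of 0.0594. Mobp, a second basic protein of compact myelin, went from 62.4 ± 15.996 to 36.8 ± 15.1 FPKM (-0.82, adjusted p = 0.157). In all, 7 of the 8 genes of this role had an unadjusted p under 0.05 and 2 were called.

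No gene of the contact between axon and glia was called with age in AL mice: 0 of 4 by limma, and 0 of 4 at an unadjusted p under 0.05. Mag, the myelin-associated glycoprotein that faces the axon, was at 57.8, 48.0, 50.6, 65.1 and 75.2 FPKM in younger AL mice and between 21.6 and 56.6 FPKM (median 31.5) in the older ones. Its difference was -0.77 (95% interval -1.57 to 0.02). The other members of the role are Gjb1, a connexin of oligodendrocyte gap junctions, at -0.72, Hapln2, a link protein of the nodal matrix, at -0.50, and Cntn2, an adhesion molecule next to the node that neurons also make, at -0.19.

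Among cytoskeletal and cytoplasmic proteins 0 of 6 were called and 3 had an unadjusted p under 0.05. Cnp, a phosphodiesterase that keeps cytoplasmic channels in myelin open, was at 123, 102, 114, 117 and 158 FPKM and then between 54.7 and 102 FPKM (median 63.6), with no overlap and a difference of -0.77 (adjusted p = 0.0631). Reads of Cnp can overlap those of Dnajc7 on the opposite strand, which had a mean of 69.4 FPKM. The other 5 ranged from -0.82 for Ermn, a cytoskeletal protein of the outer tongue, to -0.25 for Cryab, a small heat shock protein.

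Of the 7 enzymes and transport proteins, Qdpr alone was called. Qdpr, which regenerates tetrahydrobiopterin, was at 121, 125, 124, 133 and 139 FPKM in young AL mice, and between 69.2 and 111 FPKM (median 82.7) in the older ones. No library overlapped, and the difference was -0.57 ± 0.20 (limma adjusted p = 0.0455). The call was lost in 17 of 34 alternative fits. Ugt8a, which makes the galactolipid of myelin, had -0.84 (adjusted p = 0.0528) and Car2, a carbonic anhydrase, -0.28 (adjusted p = 0.127). Fa2h, which hydroxylates myelin lipids, had -0.72, Aspa, which cleaves N-acetylaspartate, -0.49, and Trf, the iron carrier, -0.43. Apod, a lipid carrier, stood apart at -0.07. The fibroblast and meningeal markers had their highest summed level of the AL mice at 15 months, 107 FPKM, in the library in which Apod was 103 FPKM. Over all libraries, Apod was highest in CR 15-month replicate 5, at 104 FPKM, where these markers summed to 32.8 FPKM. The highest sum, 129 FPKM in CR 5-month replicate 2, came with Apod at 29.7 FPKM. The part of those cells in Apod was not tested.

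Both Olig genes were called, although their differences were smaller than those of myelin proteins. Of 34 alternative fits, the call was lost in 9 for Olig1 and in 20 for Olig2. Olig1, which drives maturation of the lineage, was at 65.8, 56.8, 57.7, 60.0 and 67.3 FPKM in young AL mice and from 30.3 over a median of 45.2 to 60.1 FPKM in the older ones. Of the 6 older mice, 5 lay below the lowest younger mouse, and the difference was -0.47 ± 0.14 (limma adjusted p = 0.0276). Olig2, which specifies the lineage, went from 15.3 ± 2.46 to 11.98 ± 1.41 FPKM (SD), a difference of -0.34 ± 0.12 (SE) at an adjusted p of 0.0484. The 2 genes lie near each other on chromosome 16, Olig2 at 91225457 to 91228677 and Olig1 at 91269772 to 91271933. Sox10, the activator of myelin genes, went from 14.7 ± 1.39 to 11.6 ± 1.62 FPKM (-0.36, adjusted p = 0.260) with no overlap between the groups. Nkx6-2, a homeodomain factor of maturing oligodendrocytes, went from 7.24 ± 1.66 to 5.69 ± 2.14 FPKM (-0.39, adjusted p = 0.455).

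The smallest adjusted p of all 38 genes was that of Gpr37, an orphan receptor that restrains oligodendrocyte maturation. Its levels were 32.3, 25.5, 26.7, 27.9 and 33.6 FPKM in AL mice at 5 months. At 15 months they ran from 13.1 over a median of 14.5 to 23.1 FPKM, with no overlap. The difference was -0.83 ± 0.23 (limma adjusted p = 0.0169; exact two-sided permutation p = 0.00649), and among the alternatives run the call was lost only with the region score, with which no gene of all tested was called (Gpr37 at -0.52), and with the choroid plexus score (-0.79). Of the other receptors and secreted proteins, Adamts4, a protease of mature oligodendrocytes, had -0.60 and Lpar1, a receptor for lysophosphatidic acid, -0.52. Il33, a nuclear alarmin, had 0.03 and Klk6 0.02, the only mature genes above 0; Il33 changed sign after libraries were shifted to a common median (-0.018), as Klk6 did (-0.023).

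**Figure D2:**
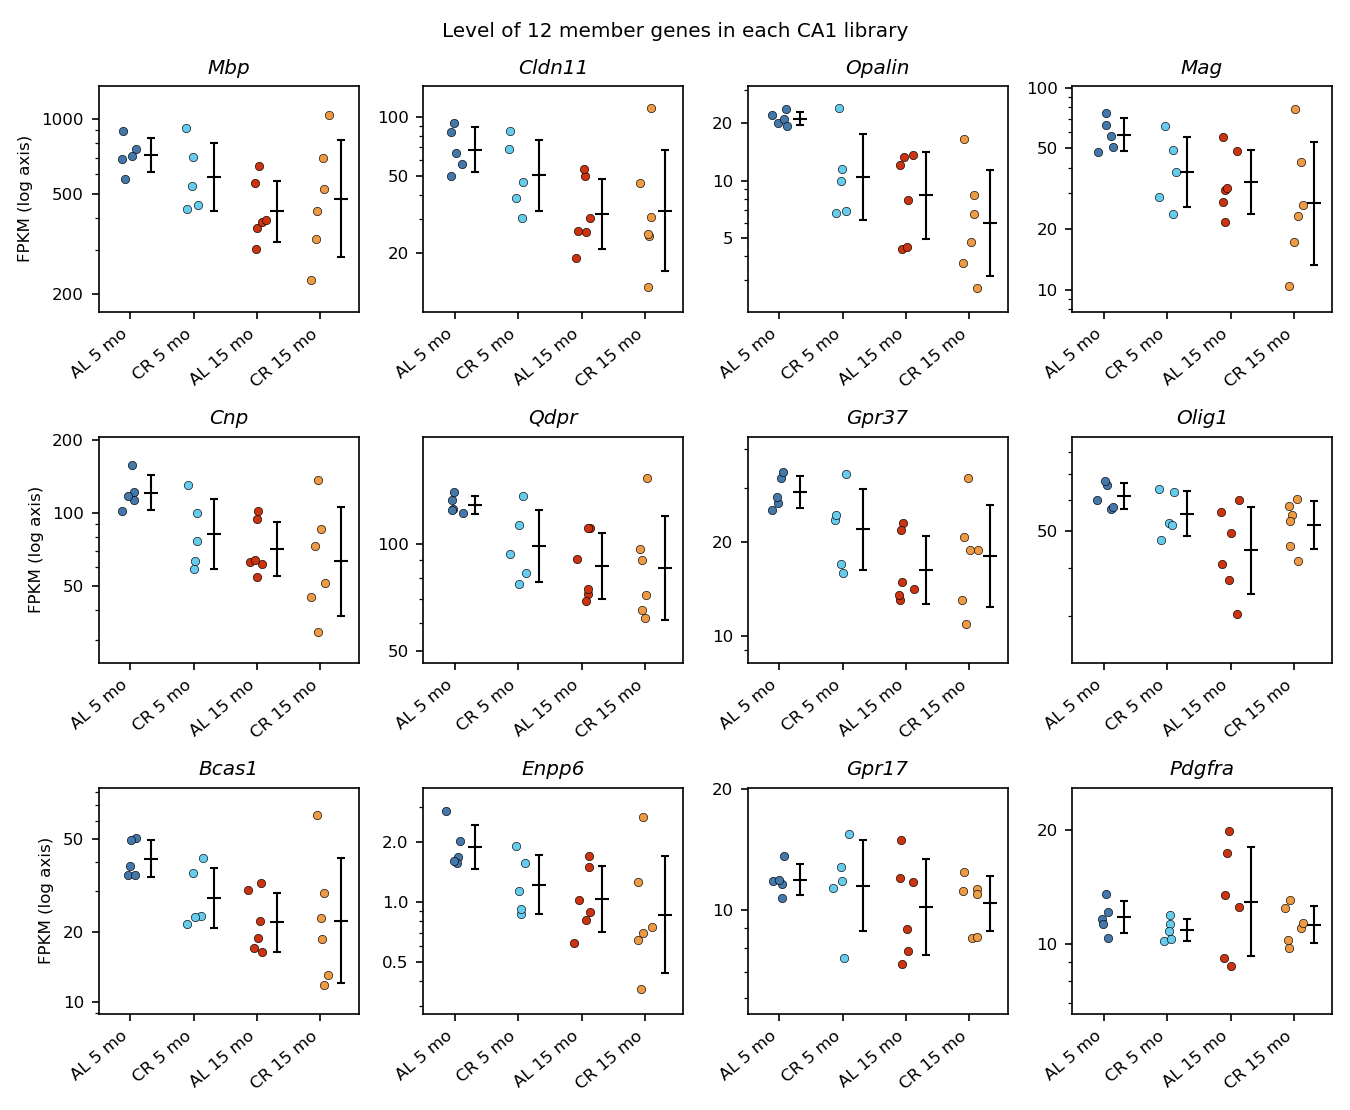
Points are the FPKM (log axis) of 12 genes in each of the 22 libraries, by group, and the bar to the right of each group gives the mean and SD of log2 FPKM. The AL libraries at 5 months sit close together and high for Opalin, Qdpr and Gpr37, with every AL library at 15 months below them, whereas for Gpr17 and Pdgfra the groups lie over each other.

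The 4 precursor genes did not move as a block. None was called with age in AL mice (limma, 0 of 4, with 2 at an unadjusted p under 0.05). Pdgfra was at 11.7, 10.4, 12.2, 11.3 and 13.6 FPKM in AL mice at 5 months and from 8.74 over a median of 13.0 to 19.9 FPKM at 15 months. Its difference was 0.14, with a 95% interval of -0.20 to 0.47 that excludes a fall as large as the mature median. Gpr17, a receptor of committed precursors, was at 11.6, 11.8, 11.9, 10.7 and 13.7 FPKM and then from 7.32 over 10.3 to 14.9 FPKM, a difference of -0.23 (95% interval -0.59 to 0.14). Both genes had older mice on each side of all younger ones. Gpr17 lies over Lims2 on the opposite strand, whose mean was 5.95 FPKM.

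Bcas1, a marker of early myelinating cells, was at 35.1, 35.3, 38.5, 50.4 and 49.8 FPKM in AL mice at 5 months, and at 15 months between 16.4 and 32.4 FPKM (median 20.6). No library of the 2 ages overlapped, and the difference of -0.90 ± 0.32 (SE) had an adjusted p of 0.0536 in limma. Enpp6 was at 1.68, 1.57, 2.02, 1.61 and 2.89 FPKM and then from 0.6251 over 0.961 to 1.71 FPKM, a difference of -0.82 (95% interval -1.54 to -0.09; adjusted p = 0.0985). These values resemble those of the myelin genes more than those of Pdgfra and Gpr17.

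**Figure D3:**
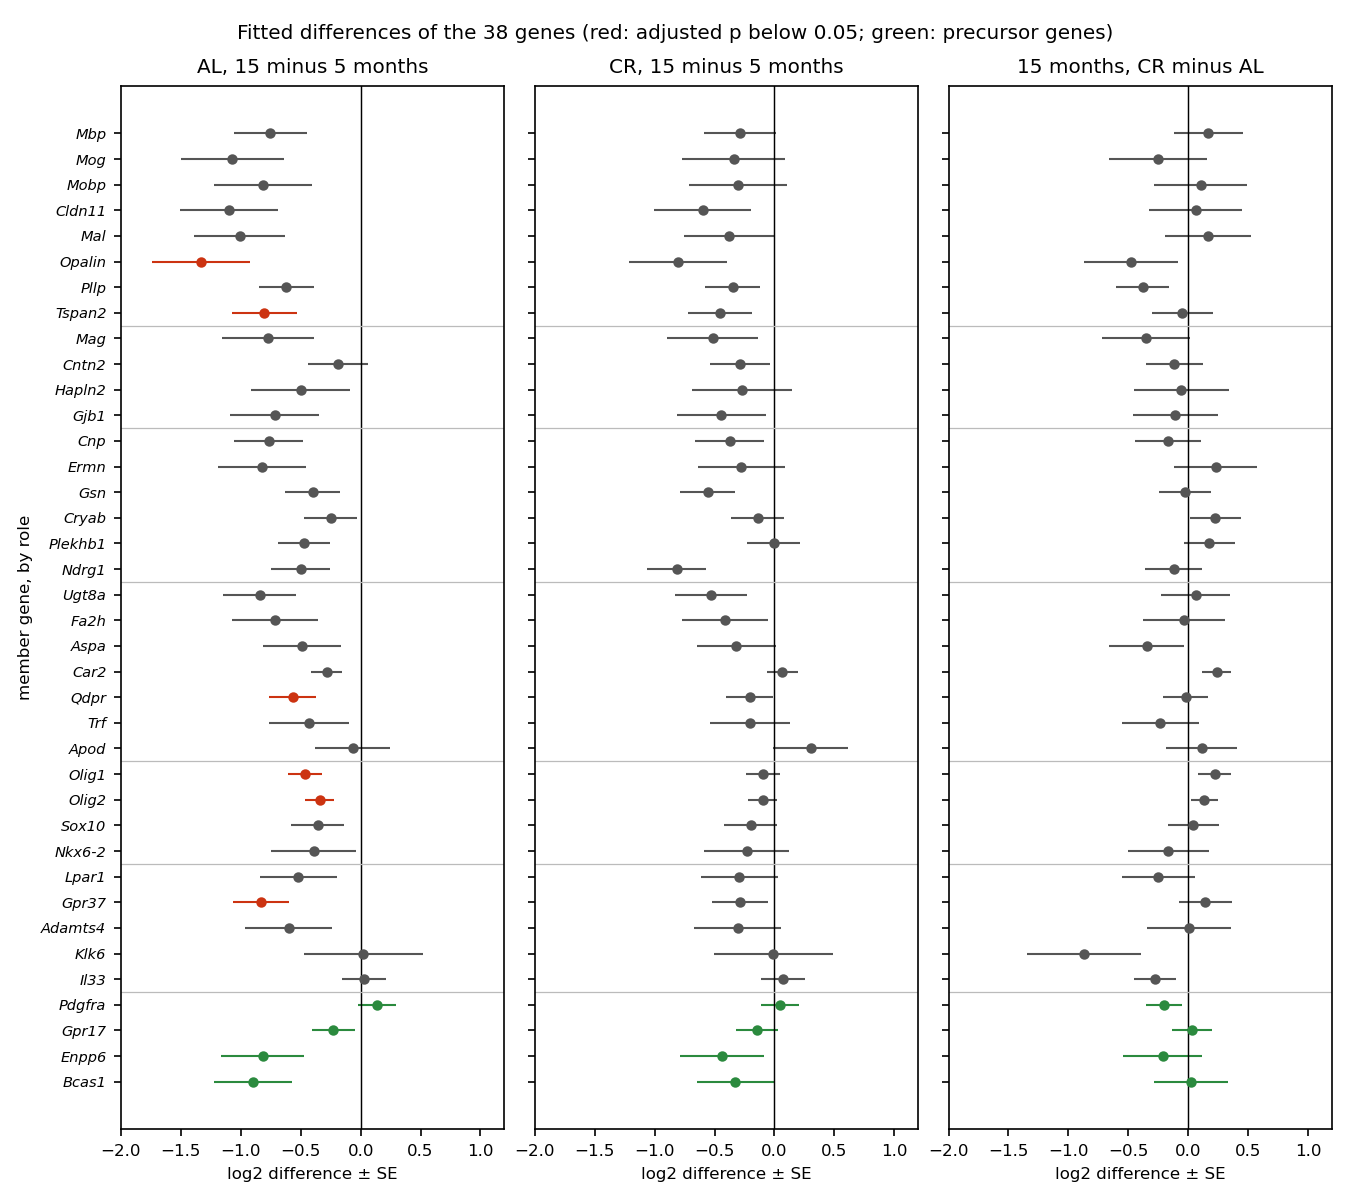
Points are fitted log2 differences of the 38 genes, by role, and bars are their SE, for age in AL mice, age in CR mice and diet at 15 months; red marks an adjusted p under 0.05 and green the precursor genes. Nearly all points lie left of 0 for age in AL mice, with 6 in red, and around 0 on both sides for diet at 15 months, with none in red.

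In CR mice no member was called between 5 and 15 months. By limma 0 of 34 mature and 0 of 4 precursor genes passed, with 2 mature genes and no precursor gene at an unadjusted p under 0.05, where 2.26% of all genes tested were called lower. The median difference of the mature genes was -0.29 and 31 of 34 were negative. Ndrg1, a cytoplasmic protein of myelinating cells that is also induced by stress, came nearest: it was at 40.8, 47.5, 52.1, 63.6 and 40.4 FPKM in CR mice at 5 months and from 16.4 over 26.6 to 57.9 FPKM at 15 months. All of the older CR mice but replicate 5 were below the lowest younger mouse, and the difference was -0.82 ± 0.25 (SE; adjusted p = 0.0747). Without that replicate 1 mature gene was called, as was the case without replicates 4 and 5 together. Genes called lower over all genes numbered 312 and 326 in these fits, and 384 with all libraries. Opalin had -0.80 (95% interval -1.66 to 0.05), Mag -0.52, Ugt8a -0.53, Gpr37 -0.29, Sox10 -0.20 and Enpp6 -0.44. The 8 choroid plexus markers were lower here too, 7 of them called, with sums of 1.195 to 4.79 FPKM in the older CR mice and 12.3 to 315 FPKM in the younger ones. Of the 9 neocortex and subiculum markers 1 was called higher, with sums of 84.2 to 251 FPKM in the older and 68.3 to 98.6 FPKM in the younger CR mice.

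The 6 main myelin genes had lower means in the older than in the younger CR mice but a wider spread, and none was called. Mbp was at 609.5 ± 203 FPKM (SD) in CR mice at 5 months and 541 ± 292 FPKM at 15 months. Mog was at 19.99 ± 12.2 and 17.2 ± 14.2 FPKM at these ages, and Mobp at 48.4 ± 17.96 and 47.0 ± 37.9 FPKM. For each of these genes the difference between the means was smaller than either SD. Cldn11 was at 53.9 ± 22.5 and then 41.9 ± 35.5 FPKM, and Mag at 40.8 ± 16.3 and then 33.0 ± 24.7 FPKM. Cnp was at 85.96 ± 29.8 and 70.9 ± 37.8 FPKM. Among the enzymes, Qdpr was at 100.5 ± 23.96 and 89.6 ± 33.7 FPKM, and Ugt8a at 14.2 ± 4.01 and 10.8 ± 6.61 FPKM, against 16.6 ± 3.50 and 9.47 ± 3.13 FPKM in AL mice. Gpr37 was at 22.8 ± 6.95 and 19.1 ± 7.45 FPKM.

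The transcription factors and precursor genes were not called in CR mice either. Olig1 was at 55.7 ± 7.52 FPKM (SD) in CR mice at 5 months and 52.2 ± 7.16 FPKM at 15 months, and Olig2 at 14.1 ± 1.56 and 13.2 ± 2.26 FPKM. Sox10 was at 13.9 ± 3.64 and 12.7 ± 5.18 FPKM, and Nkx6-2 at 5.98 ± 2.26 and 5.65 ± 3.85 FPKM. Pdgfra was at 10.9 ± 0.739 and 11.3 ± 1.27 FPKM and Gpr17 at 11.8 ± 2.87 and 10.5 ± 1.62 FPKM, so that the means of the 2 ages were within 1 SD of each other. Enpp6 was at 1.28 ± 0.448 and 1.07 ± 0.841 FPKM, and Bcas1 at 29.1 ± 8.97 and 26.6 ± 19.3 FPKM.

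That 6 mature genes were called with age on the AL diet and 0 on CR does not show that the effect of age differed. The age by diet interaction was called for 0 of 34 mature genes by limma, none had an unadjusted p under 0.05, and 0% of all genes tested were called. The interaction had a median of 0.30 over the mature genes, and 30 of 34 were positive. For Mbp it was 0.47 with a 95% interval of -0.42 to 1.36.

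At 15 months, none of the 38 genes was called between CR and AL mice in the fit of the 4 groups. Limma called 0 of 34 mature genes and 0 of 4 precursor genes, none had an unadjusted p under 0.05, and 0.742% of all genes tested were called. Of the mature genes 15 were higher and 19 lower in CR, with a median difference of -0.03. Mbp ran from 227 over a median of 476 to 1039 FPKM in CR mice, a range that contained every AL mouse of that age, and its difference of 0.17 had a 95% interval from -0.43 to 0.77. The interval thus leaves room for a difference of either sign. Mag differed by -0.35 (95% interval -1.11 to 0.41), Pllp, a proteolipid of the myelin raft, by -0.38 (-0.84 to 0.07), Car2 by 0.24 (-0.02 to 0.49), Olig1 by 0.22 (-0.07 to 0.51) and Klk6 by -0.87 (-1.86 to 0.12). Pllp was at 15.4 ± 3.99 FPKM (SD) in AL and 12.3 ± 4.82 FPKM in CR mice of this age, Car2 at 106.7 ± 15.7 and 125.9 ± 19.8 FPKM, and Klk6 at 0.669 ± 0.301 and 0.388 ± 0.378 FPKM. Cryab, with the smallest p among cytoskeletal and cytoplasmic genes, was at 49.1 ± 4.46 in AL and 62.3 ± 29.8 FPKM in CR mice and differed by 0.23. Of the genes of the earliest stages, Pdgfra differed by -0.20 (-0.52 to 0.12) and Gpr17 by 0.03 (-0.32 to 0.38).

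At 5 months the CR mice had lower fitted levels for 31 of 34 mature genes, yet none was called by limma, in a comparison in which 0% of all genes tested were called. In all, 3 mature genes (Mog, Opalin and Pllp) and no precursor gene had an unadjusted p under 0.05, and the median difference was -0.33. Pllp was at 24.4, 20.8, 22.1, 22.9 and 25.9 FPKM in AL mice and at 16.6, 16.2, 10.6, 11.6 and 20.5 FPKM in CR mice. These groups did not overlap, the difference was -0.66 ± 0.24 (SE), and the exact two-sided permutation p was 0.00794, the smallest that 252 divisions allow, while the adjusted p over all genes was 1. Opalin was at 9.89, 11.5, 6.73, 6.88 and 24.2 FPKM in the CR mice, so that 4 of 5 lay below every AL mouse and replicate 4 above all of them. The same replicate had the highest Trf of all libraries, 141 FPKM, the highest Gsn, 38.7 FPKM, and the highest summed choroid plexus markers, 315 FPKM. The choroid plexus also makes Trf. In CR 5-month replicate 3 these markers summed to 74.8 FPKM with Trf at 56.4 FPKM, and in CR 15-month replicate 5 to 2.09 FPKM with Trf at 131 FPKM. The part of the choroid plexus in these values was not tested. Cnp differed by -0.56, Mag by -0.61, Qdpr by -0.38, Olig1 by -0.15, Il33 by -0.32 and Bcas1 by -0.56. Il33 was at 19.7 ± 2.42 FPKM (SD) in AL and 15.8 ± 1.81 FPKM in CR mice.

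When CR mice at 15 months were set against AL mice at 5 months, the 2 groups that differ in both age and diet, 2 mature genes were called, both lower, against 1.73% of all genes tested. Opalin ran from 2.73 over a median of 5.72 to 16.6 FPKM in the older CR mice, all of them below the lowest young AL mouse, and the difference was -1.81 ± 0.41 (SE; limma adjusted p = 0.0191). Pllp ran from 6.73 over 11.5 to 19.8 FPKM, again without overlap, and differed by -1.004 ± 0.23 (adjusted p = 0.0202). The median of the mature genes was -0.64, 33 of 34 were negative and 15 had an unadjusted p under 0.05. No precursor gene was called (2 at an unadjusted p under 0.05), with Enpp6 at -1.03, Bcas1 at -0.88, Gpr17 at -0.20 and Pdgfra at -0.06. The count of 2 was 13 without CR 15-month replicate 5, 5 without replicates 4 and 5, and 0 without AL 5-month replicate 2 or 4. Over all genes, 294 were called lower with all libraries, and 261, 250, 111 and 127 in these 4 fits. Choroid plexus markers summed to 1.195 to 4.79 FPKM in the older CR mice and 4.55 to 37.1 FPKM in the young AL mice, and neocortex and subiculum markers had medians of 134 and 88.7 FPKM. With the region score neither gene was called (Opalin at -1.74, Pllp at -0.87; 77 of all genes called), nor with the choroid plexus score (-1.72 and -0.97; 59 of all genes called), and the part of these tissues was not tested. This comparison shares its AL mice with the one of age in AL mice and its CR mice with the one of diet at 15 months, so the comparisons are not independent.

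How far each member followed the swing between libraries was measured against 34 oligodendrocyte genes that are not among the 38, such as Myrf, a transcription factor of myelinating cells. Their mean log2(FPKM + 0.1) in a library is the score used here, and the slope of a gene is its change per unit of the score within groups. Of the 34 mature genes 29 had a slope above 0 at an adjusted p under 0.05 in limma, where 2.02% of all genes tested did. Without CR 15-month replicates 4 and 5 it was 24 of the 34, and the share over all genes was not counted for that fit. The steepest were Mog at 1.83, Mobp at 1.81 and Cldn11 at 1.81, and Mal, a raft proteolipid, was the most regular at 1.70 ± 0.08 (SE). The 5 mature genes that were not called on the slope were Ndrg1, Car2, Apod, Olig1 at 0.19 ± 0.14 and Olig2 at 0.23 ± 0.11.

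The precursor genes parted along this measure. Bcas1 had a slope of 1.39 ± 0.12 (SE; adjusted p = 1.48e-07) and Enpp6 one of 1.37 ± 0.18 (adjusted p = 7.57e-05), and both slopes were still called without CR 15-month replicates 4 and 5. Pdgfra had a slope of -0.29 ± 0.15 (adjusted p = 0.436) and Gpr17 one of -0.06 ± 0.18 (adjusted p = 0.935). Across these mice, then, Bcas1 and Enpp6 went up and down with myelin genes although they are grouped with the precursor genes, and Pdgfra, Gpr17, Olig1 and Olig2 were not called to do so. In CR 15-month replicates 4 and 5, Pdgfra was at 13.1 and 10.2 FPKM and Gpr17 at 8.52 and 12.5 FPKM, while Bcas1 was at 11.9 and 63.8 FPKM.

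**Figure D4:**
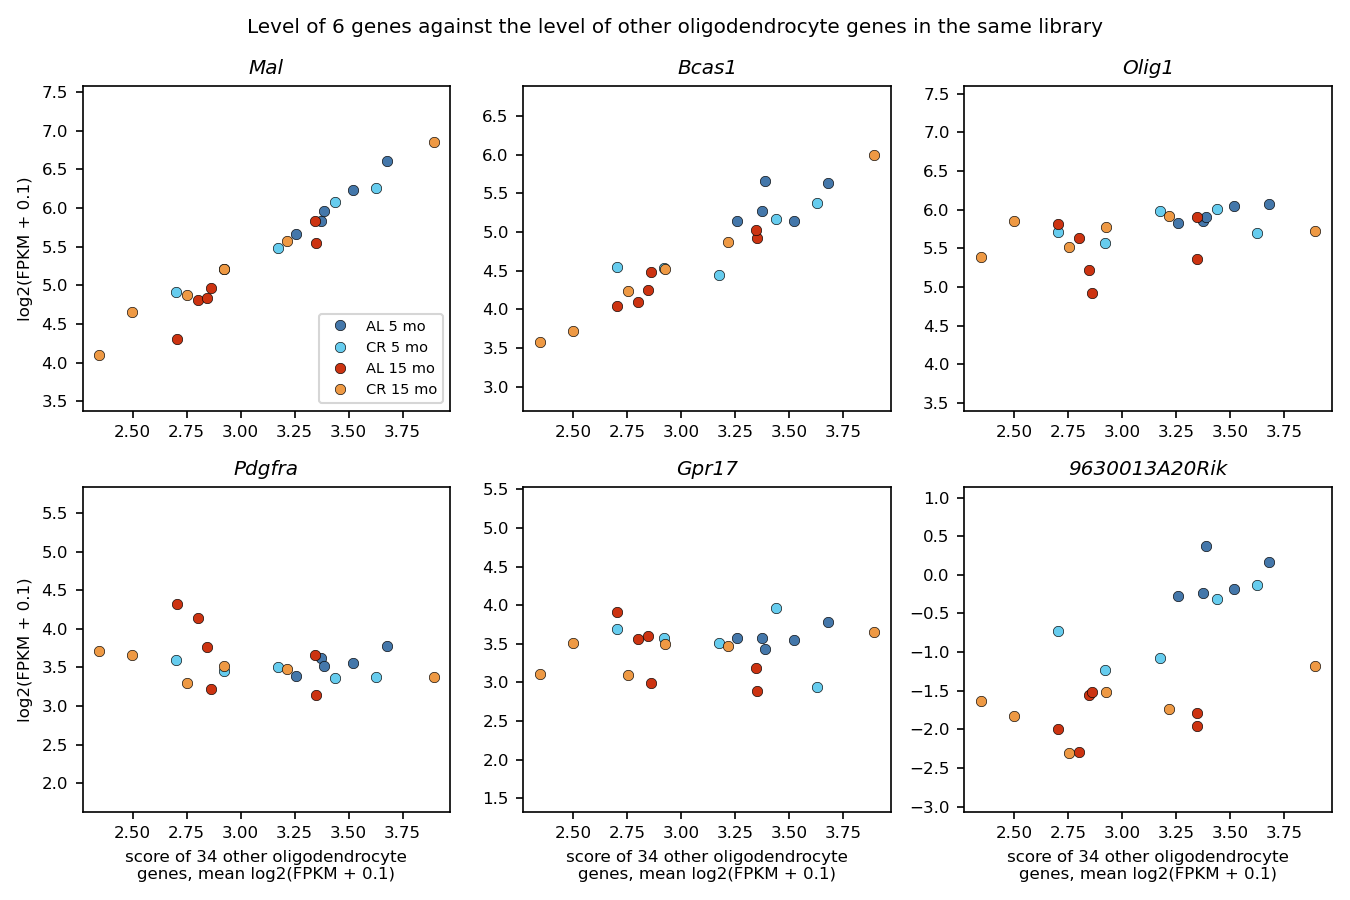
Each point is a library, coloured by group, with the score of 34 other oligodendrocyte genes on the x axis and the log2(FPKM + 0.1) of the named gene on the y axis, which spans the same range in every panel. Mal and Bcas1 rise along the score in all groups (slopes 1.70 and 1.39), and Olig1, Pdgfra and Gpr17 lie nearly flat. At a like score the long noncoding RNA 9630013A20Rik is lower in the 15-month than in the 5-month libraries. Across scores the ages overlap, with CR 15-month replicate 5 (0.340 FPKM) above CR 5-month replicate 3 (0.327 FPKM).

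With the same score as a term in the fit, 29 to 31 of the 34 mature genes came nearer to 0 in 4 comparisons, and 17 did for diet at 15 months, where Mbp went from 0.17 to 0.23. The median of the mature genes was -0.04 in place of -0.54 for age in AL mice and 0.0087 in place of -0.64 for CR at 15 months against AL at 5 months. Gpr37 alone was called for age in AL mice, at -0.37 (adjusted p = 0.00918), where 18.1% of all genes tested were called. No member was called for age in CR mice (limma; 5 at an unadjusted p under 0.05, and 3.88% of all genes called) or for diet at 5 months (5 at an unadjusted p under 0.05, and 0% of all genes). Pllp was called for diet at 15 months at -0.34 (adjusted p = 0.0398; 0.925% of all genes called), and 12 of the 38 members then had an unadjusted p under 0.05 where none had without the score. Pllp at -0.50 (adjusted p = 0.00841) and Opalin at -0.96 (adjusted p = 0.0238) were called for CR at 15 months against AL at 5 months, where 1.83% of all genes were called. Without CR 15-month replicates 4 and 5 none of these calls was kept, with adjusted p-values of 0.0525 for Gpr37, 0.0733 and 0.115 for Pllp and 0.242 for Opalin. The score is itself made of lineage genes, so these values describe a gene relative to its lineage and not its level.

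Other genes of the lineage were looked at in 2 lists, 34 of mature cells and 15 of precursors or committed precursors. Of the 34 other mature genes, 3 were called lower (among them Anln at -0.96 and Efnb3 at -0.52) and 1 higher (Edil3, a secreted matrix protein, at 0.62) with age in AL mice, with a median of -0.45. The 3 of 34 are a share near that of all genes called lower, 9.97%. None was called in the other comparisons by limma, with 3 at an unadjusted p under 0.05 for age in CR mice, 0 for diet at 15 months, 1 for diet at 5 months and 12 for CR at 15 months against AL at 5 months. Of the 15 other precursor genes, 4 were called lower with age in AL mice (9630013A20Rik, C1ql1, Neu4 and Tnr) and 3 higher (Pcdh15 at 1.25, Susd5 and Sox6), with a median of -0.09, where 9.97% of all genes were called lower and 10.7% higher. Of these 15, 9630013A20Rik alone was called for age in CR mice and for CR at 15 months against AL at 5 months, and none for diet (limma; 2 at an unadjusted p under 0.05 at 15 months and 3 at 5 months). Pcdh15, a protocadherin, was at 2.11 ± 0.429 FPKM (SD) in AL mice at 5 months and 5.09 ± 0.498 FPKM at 15 months. It is also made by some neurons, and it moved along with the neocortex and subiculum markers given above, whose part in it was not tested.

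Of the 38 members and 49 other lineage genes, the largest difference with age in AL mice was that of the long noncoding RNA 9630013A20Rik, known from single-cell studies as a marker of committed precursors and newly formed oligodendrocytes. It was at 0.780, 0.728, 0.749, 1.19 and 1.03 FPKM in AL mice at 5 months and at 0.373, 0.702, 0.503, 0.327 and 0.813 FPKM in CR mice at 5 months. At 15 months it ran from 0.104 over a median of 0.173 to 0.250 FPKM in AL mice and from 0.103 over 0.211 to 0.340 FPKM in CR mice. All older mice were below the lowest younger mouse of the AL diet, and all older CR mice but replicate 5 were below the lowest younger CR mouse. The RNA was called lower with age in AL mice (-1.82 ± 0.22 SE, limma adjusted p = 0.000106), with age in CR mice (-1.003 ± 0.22, adjusted p = 0.0127) and for CR at 15 months against AL at 5 months (-1.67 ± 0.22, adjusted p = 0.000394).

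These calls were kept when any 1 library was left out, with adjusted p-values of at most 0.000599, 0.0489 and 0.00268 in that order, and with the score of the other oligodendrocyte genes as a term. With the region score as a covariate the difference was -2.12 for age in AL mice (limma adjusted p = 0.0767), where 0 of all genes were called. For age in CR mice it was -1.201 (adjusted p = 0.0645), where 71 of all genes were called. With the choroid plexus score that for age in CR mice was -0.91 (adjusted p = 0.605), and 0 of all genes were called. The call for CR at 15 months against AL at 5 months was kept with the region score (-1.85, adjusted p = 0.00844). With the choroid plexus score it was kept too (-1.62, adjusted p = 0.0115), as was that for age in AL mice (-1.77, adjusted p = 0.00176). Diet was not called for it at 15 months (0.15, adjusted p = 0.742) or at 5 months (-0.67, unadjusted p = 0.00872, adjusted p = 1). At these low levels the pseudocount of 0.1 makes the log2 differences smaller than those of FPKM. The gene lies within Pcdh17 on the opposite strand of chromosome 14, at 84458639 to 84476424, and reads of the pair may not be told apart. Pcdh17 was at 11.7 ± 1.15 FPKM (SD) in AL mice at 5 months and 10.5 ± 2.69 FPKM at 15 months, a difference of -0.18 (limma adjusted p = 0.340). In CR mice Pcdh17 was also lower at the older age, at 14.3 ± 1.31 FPKM at 5 months and 11.7 ± 1.15 FPKM at 15 months. The part of its reads in the values of 9630013A20Rik was not tested.

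The promoters of members were searched for short letters bound by factors of the lineage, because the members move together. RefSeq windows of GRCm38.p6, from 250 bases before to 50 bases after an annotated start, were at hand for 27 of the 38 genes, 40 windows in all, some of which overlap. Letters of the SOX core (ACAAAG or ACAATG, either strand) were in 17 of 40 member windows (42.5%) and 28.6% of 32851 windows of all genes. Letters of the oligodendrocyte factor MYRF (CTGGNAC) were in 14 member windows (35.0%) against 19.3%, and E-box letters (CAGCTG or CATATG) in 10 (25.0%) against 19.8%. These are counts of letters with no test, and no match of one motif overlapped a match of another in the member windows. Shown are Opalin, which had the largest difference and held all 3 motifs, Gpr37, with the smallest adjusted p, Mobp, with 6 SOX core matches, and Pdgfra, which held none. The letters did not sort the members by how they moved, since Mal and Cldn11, which followed the other oligodendrocyte genes closely, also held none of them, and Apod, which was not called on the slope, held all 3. Capitals mark the matches.
Opalin, chr19:41077064-41077363, minus strand: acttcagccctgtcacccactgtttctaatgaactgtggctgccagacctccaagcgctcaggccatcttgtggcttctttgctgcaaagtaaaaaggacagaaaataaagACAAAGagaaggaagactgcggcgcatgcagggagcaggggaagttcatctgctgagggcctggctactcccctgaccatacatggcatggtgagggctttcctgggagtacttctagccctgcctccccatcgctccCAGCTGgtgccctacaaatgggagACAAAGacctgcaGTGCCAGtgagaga
Gpr37, chr6:25689931-25690230, minus strand: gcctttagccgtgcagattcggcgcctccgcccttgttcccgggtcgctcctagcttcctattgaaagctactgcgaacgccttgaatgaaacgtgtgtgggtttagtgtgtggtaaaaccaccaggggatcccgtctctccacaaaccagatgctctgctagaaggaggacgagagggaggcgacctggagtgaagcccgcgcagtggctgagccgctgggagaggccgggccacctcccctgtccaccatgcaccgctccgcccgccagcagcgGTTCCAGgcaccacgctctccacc
Mobp, chr9:120149492-120149791, plus strand: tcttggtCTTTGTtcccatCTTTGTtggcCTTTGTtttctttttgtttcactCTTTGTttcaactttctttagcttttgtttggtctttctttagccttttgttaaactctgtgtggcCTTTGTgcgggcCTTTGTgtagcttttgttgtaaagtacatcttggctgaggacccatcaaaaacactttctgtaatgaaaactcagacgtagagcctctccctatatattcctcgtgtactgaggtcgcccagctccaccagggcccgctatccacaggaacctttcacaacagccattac
Pdgfra, chr5:75152001-75152300, plus strand: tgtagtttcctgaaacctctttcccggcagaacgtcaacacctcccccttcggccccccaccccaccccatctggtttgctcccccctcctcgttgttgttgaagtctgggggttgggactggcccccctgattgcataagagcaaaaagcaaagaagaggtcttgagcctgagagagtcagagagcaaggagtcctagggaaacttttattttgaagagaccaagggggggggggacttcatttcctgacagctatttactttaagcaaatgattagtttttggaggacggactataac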

How the data were processed

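mRNA libraries were prepared from microdissected CA1 with the TruSeq kit, and the labels give 1 mouse per library. According to the methods, the authors called bases with bcl2fastq and aligned reads to mm10 with TopHat. Duplicates were then discarded with Picard, and the deposited values are FPKM as estimated by the authors with Cufflinks, with corrections for fragment bias and for reads of several positions. The annotation release and the use of strand are not given in the sources used here, so reads of overlapping genes on opposite strands may not be told apart. All 22 value columns were used as deposited and 0 were left out. Whole reads could not be recovered, because at most 0.567% of low genes lay on a common ratio in 3 pairs of libraries. The number of reads behind a value is unknown, no interval for counting error is given, and errors are the spread over mice.

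Levels were fitted as log2(FPKM + 0.1) with limma 3.58.1 (R 4.3.3), using lmFit and eBayes with trend on the 4 groups at once, for the 16978 genes whose mean was at least 0.1 FPKM. Tests were two-sided, with Benjamini-Hochberg adjustment over all these genes in each contrast. This scale understates the change of low genes. For single genes, exact permutation tests enumerated every division of the mice of 2 groups (Python 3.11.15, numpy 2.4.6, pandas 2.3.3; plots with matplotlib 3.10.9). The fit was tested on simulated data. Gene positions come from GENCODE M21 (GRCm38), promoter windows from RefSeq (GRCm38.p6).

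Members, roles and the lists of markers and other lineage genes were chosen with earlier results of these data known. The naming rule covers the 4 precursor genes, the 4 transcription factors, Mbp, Mag, Mog, Mobp, Cnp and Cldn11, and the member of each role with the smallest p in each comparison, with levels per group. Other members are given by name where called and otherwise by difference or range. From the other lineage lists it covers the called gene with the widest difference each way. Pcdh17 and the promoters shown were picked after their values were seen.

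The alternatives tried were other pseudocounts (1 and 0.01), other filters (above 0 in any library, or a mean of at least 1 FPKM), a common median, quantile normalization, eBayes without trend, separate fits, the replicate number as a block, the region or choroid plexus score as a covariate, and leaving out each library. Those added with the data in view were leaving out CR 15-month replicates 4 and 5, a covariate of other oligodendrocyte genes, and the refits for 9630013A20Rik. NanoString values were not analysed here. The values of 1 gene of the other lineage lists are not reported here.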

Additional observations from a re-analysis of the deposited data

Results flagged for a closer look

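A library lay far from the rest of its group, by Dixon's test at the 95% level, in 13 of 152 sets of 1 member gene in 1 group. The test was run on FPKM and not on log2 values. Chance alone flags about 5% of such sets only if levels are normally distributed within groups. That was not checked for FPKM, so the 13 cannot be set against this share. Genes that share the same libraries are not independent. In CR mice at 15 months, replicate 5 was far above the other 5 mice for 11 genes. Its levels were 44.2 FPKM for Mog (others at most 19.6), 111.1 for Cldn11 (46.1), 115.9 for Mal (47.6), 35.9 for Tspan2 (16.3), 42.0 for Ermn (14.9) and 57.9 for Ndrg1 (30.7). They were 23.3 FPKM for Ugt8a (others at most 11.9), 17.9 for Aspa (8.23), 13.2 for Lpar1 (6.06), 9.49 for Adamts4 (4.18) and, of the precursor genes, 63.8 for Bcas1 (29.3). In the same mouse the neocortex and subiculum markers had their highest sum of all libraries, 251 FPKM. The next highest sum, 241 FPKM in AL 15-month replicate 5, came with Mog at 15.1 and Cldn11 at 25.8 FPKM. The part of these tissues in the values was not tested. In CR mice at 5 months, replicate 4 had 24.2 FPKM of Opalin where the other 4 had at most 11.5 FPKM, and in AL mice at 5 months, replicate 4 had 1.26 FPKM of Klk6 where the others had at most 0.590 FPKM.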

How the results depend on the processing

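Among mature genes, the 6 calls for age in AL mice became 11 after a shift to a common median, 19 in a separate fit of the 2 groups, 14 without CR 15-month replicates 4 and 5, and 0 with either the region or the choroid plexus score. Genes called lower over all genes were 1693 at first and 2286, 2198, 1845, 0 and 867 in these fits, so the 0 of the region fit holds for every gene tested. Opalin was -1.21 and Qdpr -0.52 with the region score. With the score of other oligodendrocyte genes 1 was left and the median difference was -0.0434. Leaving out 1 library gave 1 (AL 5-month replicate 4) to 14 (CR 15-month replicate 5). The 2 calls for CR at 15 months against AL at 5 months became 1 in a separate fit, 5 without CR 15-month replicates 4 and 5, 0 with either the region or the choroid plexus score, and 0 to 13 with 1 library left out. Over all genes, 294 were called lower at first. The separate fit had 138, that without replicates 4 and 5 had 250, and the region and choroid plexus scores left 36 and 32. The median of the mature genes in this comparison was 0.00871 with the score of other oligodendrocyte genes. Age in CR mice had 1 call without CR 15-month replicates 4 and 5, and 0 to 1 with 1 library left out. Over all genes, 384 were called lower for age in CR mice at first and 326 without replicates 4 and 5. Diet at 15 months had 1 call with the score of other oligodendrocyte genes, where 157 of all genes were called. The cause was not tested.

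With the replicate block, age in AL mice had 9 calls, CR at 15 months against AL at 5 months had 3, and the other contrasts had 0. Over all genes, the block gave 1899 lower calls for age in AL mice, where 1693 were called lower without it. For CR at 15 months against AL at 5 months it gave 366, where 294 were called lower without it. Labels say nothing of shared litters or days, and deviations from the group mean correlated between -0.139 and 0.163 in 31 pairs of equal number, above 0.1 in 2, so the number was not taken as a pairing.

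Signs turned for 5 members in AL mice with age. With the region score Cntn2 was 0.0026, Gsn 0.077, Apod 0.069, Klk6 -0.034 and Il33 -0.23, and with the choroid plexus score Apod was 0.19. Klk6 was -0.023 after the common median, -0.087 after quantile normalization and -0.19 with the replicate block. Il33 was -0.018 and -0.037 under the first and the last of these. Leaving out 1 library moved Apod between -0.30 and 0.084, Klk6 between -0.098 and 0.26 and Il33 between -0.060 and 0.10. Over 2276 refits of single members, 2108 kept direction and side of the threshold, 73 lost a call, 73 gained one and 22 turned sign. Only a result called at first can lose a call, and each of these was refitted 34 times. For age in AL mice the call was lost in 20 of the 34 for Olig2 and in 17 for Qdpr. It was lost in 10 for Tspan2, 9 for Olig1, 6 for Opalin and 2 for Gpr37. For CR at 15 months against AL at 5 months it was lost in 5 for Pllp and 4 for Opalin. Read depth is unknown, so its limit on low genes such as Klk6 and Enpp6 could not be given.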
